A study of Homo sapiens with 4 samples.

Results

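The response of 13375 genes to a change of culture medium was compared between 2 human epithelial cancer cell lines, H441 and HT29. H441 was established from a lung adenocarcinoma and HT29 from a colorectal adenocarcinoma. Unmodified (labelled WT) cells of each line were cultured for 7 days in RPMI-1640 or in HPLM, and all 4 groups had 10% FBS (fetal bovine serum) and 1% P/S, as the labels abbreviate it. Each line stands for itself, so a difference between them is not a difference between lung and colon. For each gene, the change in a line was the mean in HPLM minus the mean in RPMI-1640 of log2(TPM + 1), where TPM is the length-corrected share of transcripts in a library. The difference between lines was the change in HT29 minus the change in H441, so a negative difference means that a gene went lower, or rose less, with HPLM in HT29 than in H441. Genes were tested where TPM was at least 1 in all 3 libraries of 1 medium in each line, which held for 13375 of the 58051 gene identifiers deposited for both lines.

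RPMI-1640 is a conventional medium rich in glucose and in several amino acids. HPLM, human plasma-like medium, copies the small-molecule make-up of human plasma, glucose, amino acids and salts included. Cells read such supplies through transcription programs that can overlap. ATF4 answers shortage of amino acids and other stresses in the integrated stress response, and IRE1, ATF6 and PERK answer unfolded protein in the endoplasmic reticulum (ER). HSF1 answers unfolded protein in the cytosol, NRF2 oxidants and electrophiles, SREBP2 low sterol and MondoA glucose phosphates.

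Recovered reads numbered 14.2 to 30.6 M per library. The tables hold 3 numbered columns per line and medium, called libraries here, and nothing in the labels tells whether each was its own culture, so every p-value here rests on a spread between libraries that may be technical. HT29 RPMI-1640 library 1 stood apart from the other libraries of its group, with a root mean square deviation of 0.601 on the log2 scale against 0.129 to 0.359 in the other 11 libraries, and results are given with and without it. The summed TPM of 5 lung markers was 2755 to 2835 in RPMI-1640 and 1066 to 1152 in HPLM in H441, against 2.57 to 9.21 in HT29. That of 6 colon markers was 1884 to 2114 in RPMI-1640 and 1319 to 1518 in HPLM in HT29, against 3.57 to 5.84 in H441. In HT29 mean TPM in RPMI-1640 and HPLM was 1081 and 929 for KRT20 and 832 and 463 for LGALS4. VIL1 had 53.3 and 43.0, CDX2 5.38 and 3.23, and CDH17 3.41 and 0.867, while CDX1 stayed below 1 TPM. In H441 SFTPA1 had 1452 and 447, SFTPA2 978 and 302, and NKX2-1 174 and 162. NAPSA had 201 and 193 there, and SFTPB 2.08 and 5.78. Both lines thus carried transcripts of their labelled origin, mainly of a few of these markers. Of markers of other cells, 4 of 6 genes of fibroblasts, 2 of 4 of endothelium and 0 of 5 of leukocytes stayed below 1 TPM in every library. In H441 the sums of these classes were 59.8 to 77.4, 19.6 to 21.9 and 9.45 to 15.0 TPM. In HT29 the fibroblast and endothelial sums were 0.665 to 2.31 and 0.144 to 1.32 TPM, and the leukocyte sum was 17.0 to 46.7 TPM in RPMI-1640 and 9.61 to 13.3 TPM in HPLM. The part of these transcripts in the results was not tested. In bulk RNA, fewer cells of a kind and less RNA per cell cannot be told apart.

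Under limma with Benjamini-Hochberg adjustment at a threshold of 0.05, which is what "called" means below, 366 genes had a higher (2.74%) and 1975 a lower change in HT29 (14.8%). Without HT29 RPMI-1640 library 1 these numbers were 1592 (11.9%) and 4258 (31.8%), and they included all 366 and all 1975 of the genes called with all libraries. The excess of lower calls moved with the scale of the values. Over all genes the median change was 0.14 in H441 and -0.10 in HT29, and the median difference was -0.25. The mitochondrially encoded share of TPM was 26.3 ± 2.38% in RPMI-1640 and 19.0 ± 2.29% in HPLM in H441, and 26.1 ± 5.95% and 33.8 ± 4.56% in HT29 (SD, n = 3 each). With scaling factors from the trimmed mean of nuclear genes (trimmed mean scaling), the median difference was -0.01, and 894 genes were higher (6.68%) and 1230 lower (9.2%). Higher genes thus made up 15.6% of calls on the TPM scale and 42.1% after trimmed mean scaling, and 362 of the 366 and 1226 of the 1975 genes were called in the same direction on both. A call shared by 6 settings (TPM, TPM without library 1, 3 rescalings and edgeR on recovered reads) was found for 299 higher genes (2.24%) and 942 lower genes (7.04%), and these are called stable below. A gene missing from a setting could not be stable. Of the 366 higher genes 41 were not in the edgeR fit, and 13 were mitochondrially encoded and left out of 1 rescaling. Of the 1975 lower genes 26 were not in the edgeR fit. Of 704 genes in 35 lists of pathways and cell types, 583 passed the minimum TPM and were tested. The rest were too low in at least 1 line, so counts over a list speak only of its tested members. List counts below read against the shares of all genes. These were 14.8% lower and 2.74% higher with all libraries, 31.8% and 11.9% without library 1, and 9.2% and 6.68% after trimmed mean scaling.

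Within the lines, the same model called 1846 genes raised (13.8%) and 421 lowered (3.15%) by HPLM in H441, and 1331 raised (9.95%) and 2238 lowered (16.7%) in HT29. With each line's spread estimated alone, 5183 genes were raised and 1737 lowered in H441, and 322 raised and 541 lowered in HT29. List counts within each line below rest on the spread shared by both lines and on all 12 libraries. They read against the shares of all genes raised and lowered in that line. These were 13.8% and 3.15% in H441, and 9.95% and 16.7% in HT29. Across the 13375 genes, which are not independent, the changes in the 2 lines had a Pearson correlation of 0.299 and a Spearman correlation of 0.302. Of the 1975 lower genes, 875 were lowered in HT29 and not called in H441, 613 were raised in H441 and not called in HT29, and 241 (12.2%) were raised in H441 and lowered in HT29. A further 72 were lowered in both lines, more in HT29, and 23 were raised in both, more in H441. Of the 366 higher genes, 257 were raised in HT29 and not called in H441, and 15 were lowered in H441 and raised in HT29. Without library 1 the genes called in opposite directions in the 2 lines numbered 1039 among the lower and 193 among the higher ones.

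**Figure D1:**
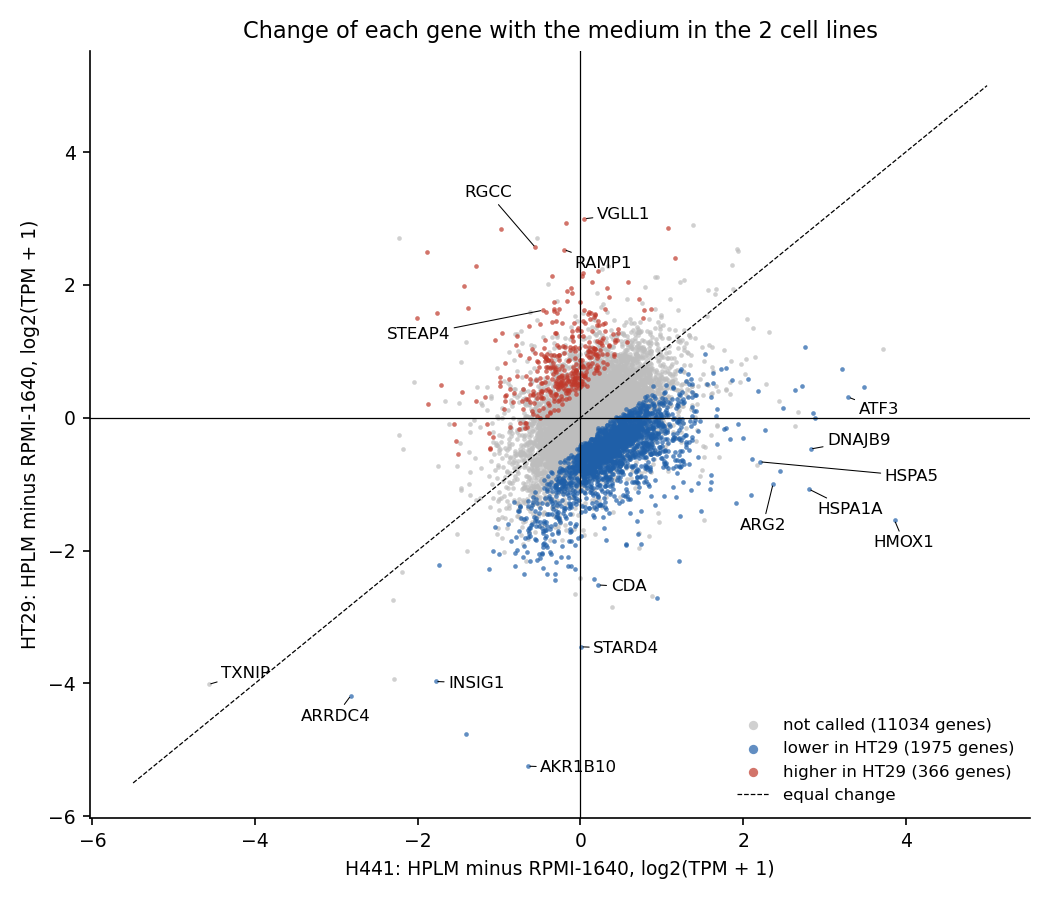
Change with HPLM in H441 (horizontal axis) against that in HT29 (vertical axis), both HPLM minus RPMI-1640 in log2(TPM + 1), for each of 13375 genes; blue marks the 1975 genes called lower in HT29, red the 366 called higher, grey the rest, and the dashed line equal change. HMOX1 and HSPA1A lie at the lower right, raised in H441 and lowered in HT29, while TXNIP lies near the dashed line at the lower left.

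The widest difference among the genes named here was that of HMOX1 (ENSG00000100292, chromosome 22, 35380361 to 35394214, GRCh38), which encodes heme oxygenase 1, the enzyme that breaks down heme. With values listed in the order of libraries 1, 2 and 3, it stood at 39.2, 35.9 and 40.2 TPM in H441 in RPMI-1640 and at 572, 554 and 591 TPM in HPLM. In HT29 it stood at 6.29, 17.0 and 21.0 TPM in RPMI-1640 and 3.45, 4.47 and 3.79 TPM in HPLM. The groups did not overlap within either line: HPLM was the high group in H441 and the low group in HT29. The change was 3.86 in H441 and -1.54 in HT29, a difference of -5.41 ± 0.45 (standard error, limma adjusted p = 9.26e-05), or -5.89 without library 1.

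Of 17 tested heat shock genes, 6 were raised and 0 lowered in H441, and 1 was raised and 7 lowered in HT29. The list's median change in HT29 was -0.61, but -0.22 without library 1. Over all genes it was -0.10 and -0.001. HSPA1A (ENSG00000204389, chromosome 6, 31815464 to 31817946), an inducible HSP70 and a classic HSF1 target, had 24.6, 30.9 and 26.8 TPM in RPMI-1640 and 188, 201 and 204 TPM in HPLM in H441. In HT29 it had 163, 143 and 160.1 TPM in RPMI-1640 and 75.5, 72.5 and 70.9 TPM in HPLM. H441 in RPMI-1640 was thus the lowest group and H441 in HPLM the highest, with HT29 between them and no overlap of media in either line. The difference was -3.89 ± 0.15 (limma adjusted p = 3.70e-07), and that of its near-identical neighbour HSPA1B was -3.26 ± 0.14 (limma adjusted p = 8.05e-07). Reads of the 2 copies can be exchanged in counting, so their values are not separate evidence. The difference was lower in HT29 for 10 of the 17 (58.8%, against 14.8% of all genes) and higher for 0, with a median difference of -0.95 against -0.25 over all genes. Without library 1 the list had 13 lower and 1 higher, after trimmed mean scaling 7 lower, and 7 were stable.

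The 300 bases around the start of HSPA1A are shown because the gene carries the textbook heat shock element in its promoter. The window runs from 250 bases before to 50 after the start (RefSeq, GRCh38.p14, chr6:31815293-31815592, plus strand), with the heat shock element GAANNTTC at -106 and the CCAAT box, read on either strand, at -153 and -69 in capitals.

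HSPA1A: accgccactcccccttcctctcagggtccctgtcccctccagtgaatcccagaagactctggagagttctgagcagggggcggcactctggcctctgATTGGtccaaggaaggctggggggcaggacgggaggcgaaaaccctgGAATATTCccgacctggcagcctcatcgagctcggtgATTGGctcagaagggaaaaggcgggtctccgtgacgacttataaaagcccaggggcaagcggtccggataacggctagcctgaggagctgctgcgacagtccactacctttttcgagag

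GAANNTTC, searched on both strands, was in the promoters of 5 of 9 lower heat shock genes with a RefSeq promoter and in 6.44% of the 9416 promoters of all genes tested. A match describes the letters in this window and is not evidence of a bound site. Here and in the lists below, no share was taken for list members that were not lower. Whether a share goes with membership of the list or with a lower difference thus cannot be told.

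Most genes of the unfolded protein response were raised in H441, and several were lowered in HT29. Of 23 tested, 17 were raised and 0 lowered in H441, 0 were raised and 8 lowered in HT29, and 17 (73.9%, against 14.8% of all genes) had a lower change in HT29 with 0 higher. Their median difference was -1.44, or -1.52 with 21 lower without library 1, and -1.19 with 12 lower after trimmed mean scaling. Their median change in HT29 was -0.35, and -0.37 without library 1. HSPA5 (ENSG00000044574, chromosome 9, 125234853 to 125241330), the ER chaperone BiP that also restrains the stress sensors, had 904, 945 and 865 TPM in RPMI-1640 and 4261, 4049.8 and 4220.4 TPM in HPLM in H441. In HT29 it had 828, 1406 and 1497 TPM in RPMI-1640 and 812, 778 and 692 TPM in HPLM. H441 in HPLM stood 4.61-fold above H441 in RPMI-1640, while in HT29 library 1 lay just above the HPLM libraries and libraries 2 and 3 well above them. The difference was -2.87 ± 0.27 (limma adjusted p = 1.63e-04) and -3.14 without library 1.

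Cochaperones of BiP had differences of the same sign. DNAJB9, also called ERdj4, rose in H441 from 23.2, 22.2 and 20.5 to 164, 154 and 169 TPM, against 24.8, 70.3 and 59.8 TPM in RPMI-1640 and 38.7, 33.8 and 29.3 TPM in HPLM in HT29. Its difference was -3.30 ± 0.43 (limma adjusted p = 8.81e-04), and the HT29 media overlapped because library 1 was low. DNAJB11, also called ERdj3, rose in H441 from 42.6, 42.4 and 47.5 to 111, 114 and 114 TPM and fell in HT29 from 67.8, 66.0 and 70.8 to 55.8, 53.8 and 48.7 TPM, without overlap in either line. That fall in HT29 was called with all libraries (limma adjusted p = 0.0141) and without library 1 (limma, 0.00318). It was not called after trimmed mean scaling (limma, 0.0689), by edgeR (0.0697) or with a separate variance per line (limma, 0.156). MANF, a secreted ER stress protein, rose in H441 from 122, 125 and 118 to 285, 273 and 279 TPM and fell in HT29 from 109, 118 and 123 to 76.5, 78.4 and 68.4 TPM. Their differences were -1.70 ± 0.13 and -1.83 ± 0.13, and leaving out library 1 gave -1.71 and -1.88, since that library lay with its group in both genes.

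The window of HSPA5 (RefSeq, GRCh38.p14, chr9:125241294-125241593, minus strand) is shown because the CCAAT boxes of its ER stress elements are a textbook feature, and matches of CCAAT on either strand, at -216, -188, -99, -66 and 35 from the start, are in capitals.

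HSPA5: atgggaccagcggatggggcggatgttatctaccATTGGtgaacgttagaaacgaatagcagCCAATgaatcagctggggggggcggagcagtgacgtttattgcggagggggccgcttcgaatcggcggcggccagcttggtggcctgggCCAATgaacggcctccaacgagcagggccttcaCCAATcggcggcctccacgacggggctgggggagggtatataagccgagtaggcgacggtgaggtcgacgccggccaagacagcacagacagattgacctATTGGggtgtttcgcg

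CCAAT was found in 15 of 16 promoters (93.8%) of the lower genes of this list, in 46.4% of those of all lower genes, in 38.0% of those of all higher genes and in 43.4% of those of all genes tested. Members of the list that were not lower were not counted, so the share cannot be tied to the lower difference. The longer ER stress element was not searched for.

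**Figure D2:**
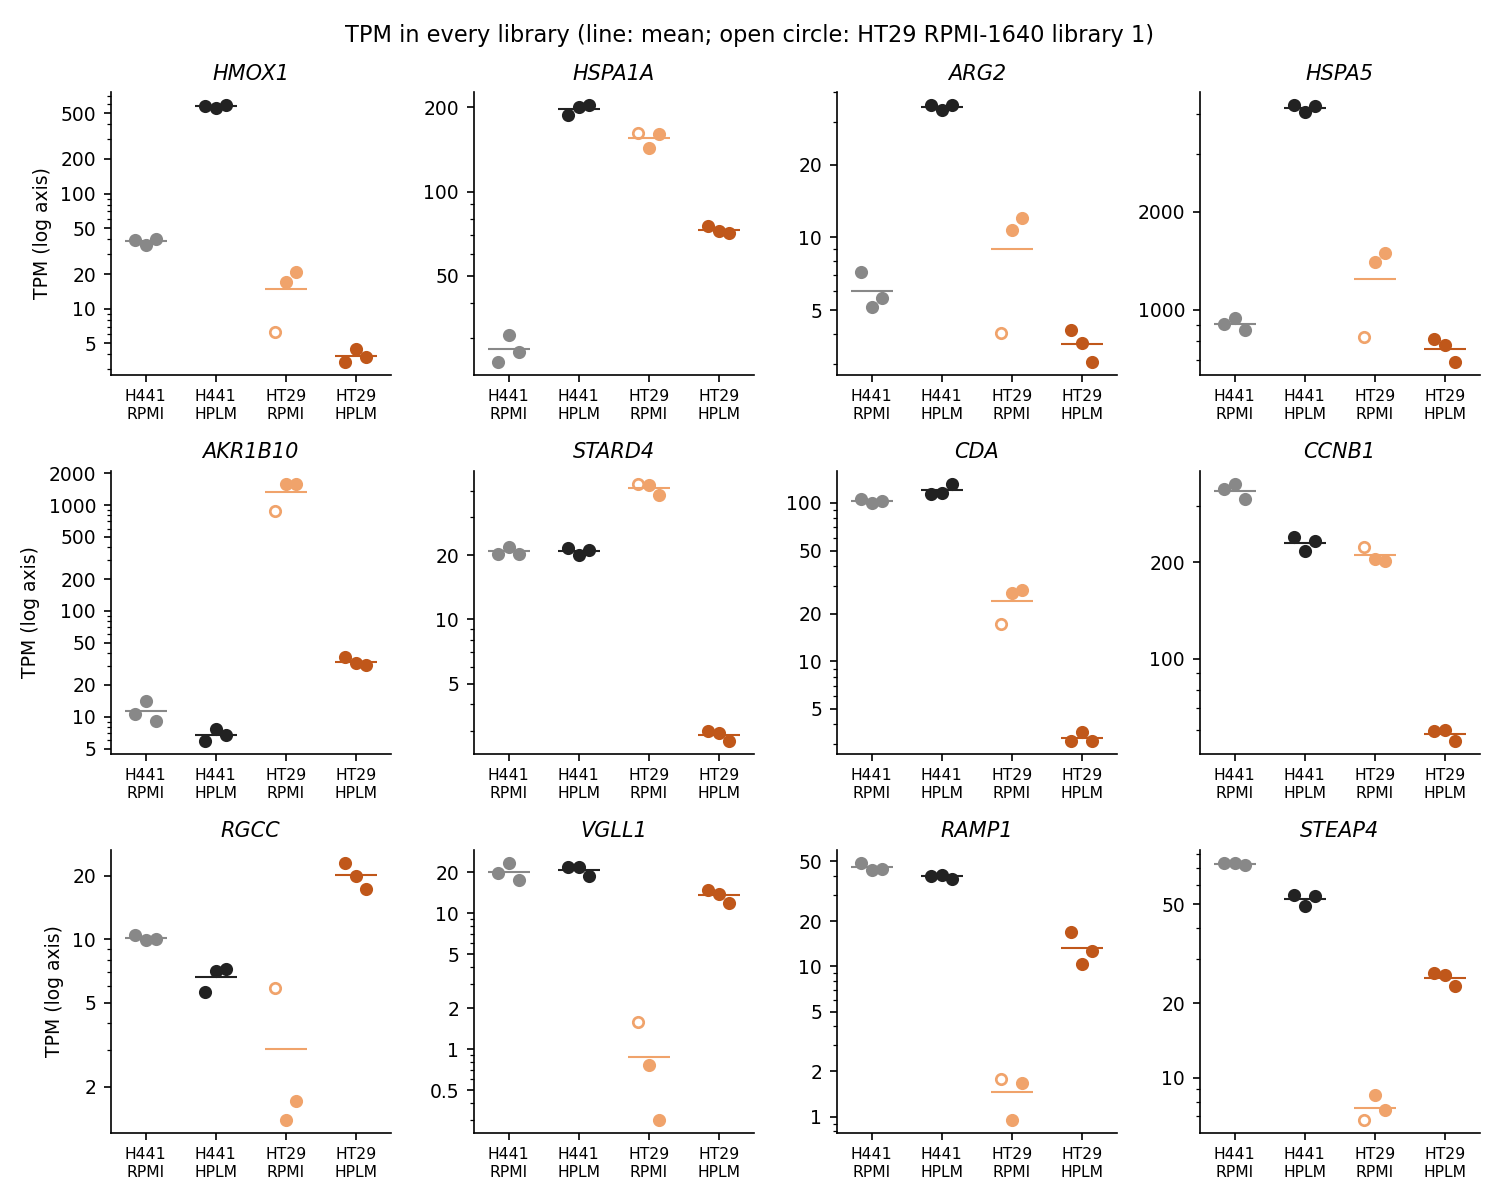
TPM in every library of 12 genes (vertical log axis, 1 panel per gene) by line and medium, with lines at group means of 3 libraries and an open circle for HT29 RPMI-1640 library 1. In the panels of HMOX1 and HSPA1A the HPLM libraries are above the RPMI-1640 libraries in H441 and below them in HT29, and in those of RGCC, VGLL1 and RAMP1 the HT29 libraries are higher in HPLM.

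The amino acid response depended on library 1. Of 29 tested targets of ATF4 and the amino acid response, 13 were lower in HT29 with all libraries (44.8%), 28 without library 1 and 4 after trimmed mean scaling. Of all genes 14.8%, 31.8% and 9.2% were lower in these settings, so the last count was not far above that of all genes. No gene of the list was higher in any of these 3 settings. The medians were -1.29, -1.69 and -1.03. The count after trimmed mean scaling kept library 1. With that scaling and without library 1 together, 28 were lower and 1 higher, with a median of -1.53. Of the 13375 genes 3662 were lower and 3319 higher there, with a median of -0.0008. ASNS, asparagine synthetase, had 449, 473 and 435 TPM in RPMI-1640 and 1141, 1070.1 and 1133 TPM in HPLM in H441, and 54.0, 494 and 537 and 237, 218 and 205 TPM in HT29. In HT29 library 1 lay below the HPLM libraries and libraries 2 and 3 above them, so the HT29 groups overlapped through that library. The difference was -1.45 ± 0.95 (limma adjusted p = 0.335) with all libraries and -2.53 (limma adjusted p = 1.19e-07) without library 1. CHAC1, which degrades glutathione, had 4.86, 93.4 and 94.7 TPM in HT29 in RPMI-1640 against 36.2, 31.2 and 32.6 TPM in HPLM, and its difference went from -1.81 to -3.15. TRIB3, a pseudokinase that restrains ATF4, went from -1.48 to -2.35 in the same way. For neither was the difference called with all libraries, with limma adjusted p of 0.331 and 0.219.

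Other members of the response differed between lines with library 1 included. ATF3, a stress transcription factor, rose in H441 from 10.1, 9.18 and 8.69 to 100.3, 101 and 98.9 TPM, with 11, 32.8 and 32.1 TPM in RPMI-1640 and 30.9, 27.4 and 27.2 TPM in HPLM in HT29. The HT29 groups overlapped through library 1, and the difference was -2.99 ± 0.45 (limma adjusted p = 0.00193). DDIT3, the transcription factor CHOP, rose in H441 from 109, 113 and 109 to 1055, 1007 and 1049.8 TPM, with 39.7, 220.5 and 236 and 217, 219 and 202 TPM in HT29. Its difference of -2.49 ± 0.73 (limma adjusted p = 0.0408) was not called after trimmed mean scaling (limma adjusted p = 0.101). PSPH, the last enzyme of serine synthesis, rose in H441 from 26.4, 28.96 and 26.4 to 56.2, 55.1 and 54.8 TPM and fell in HT29 from 70.4, 69.0 and 63.7 to 51.3, 53.1 and 45.7 TPM. Its difference of -1.43 ± 0.13 (limma adjusted p = 1.53e-04) was -1.40 without library 1, which for this gene was close to libraries 2 and 3. The fall of PSPH in HT29 was not called with a separate variance per line (limma adjusted p = 0.117).

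Amino acid supply genes gave smaller differences. Of 11 amino acid transporters tested 4 were lower in HT29, and of 23 cytosolic aminoacyl-tRNA synthetases 7, with medians of -0.59 and -0.58. After trimmed mean scaling 3 and 5 were lower, and 0 and 1 higher. Without library 1 7 and 15 were lower, and 2 and 1 higher, where 31.8% and 11.9% of all genes were. SLC1A4, a carrier of alanine, serine and cysteine, rose in H441 from 6.31, 7.49 and 6.13 to 26.2, 25.2 and 27.7 TPM, with 11.4, 20.6 and 16.3 TPM in RPMI-1640 and 13.6, 12.6 and 10.8 TPM in HPLM in HT29. The HT29 media overlapped, and the difference was -2.17 ± 0.25 (limma adjusted p = 5.24e-04). SLC7A1, a carrier of arginine and lysine, rose in H441 from 68.3, 72.6 and 60.1 to 136, 128 and 137 TPM against 103, 115 and 112 and 103, 99.0 and 84.1 TPM in HT29, a difference of -1.20 ± 0.16. SLC7A11, the cystine carrier, had a difference of -1.63 ± 0.22, from called changes of 0.75 in H441 and -0.88 in HT29. TARS1 and NARS1, the synthetases for threonine and asparagine, had differences of -1.02 ± 0.13 and -0.93 ± 0.15, with a called rise in H441 of 0.96 and 0.76.

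ARG2, the mitochondrial arginase that turns arginine into ornithine, was among the genes of opposite sign. It rose in H441 from 7.197, 5.15 and 5.61 to 35.2, 33.8 and 35.4 TPM and fell in HT29 from 4.04, 10.7 and 12.1 to 4.14, 3.65 and 3.05 TPM. In HT29 library 1 lay within the range of the HPLM libraries, and libraries 2 and 3 stood above them. The difference was -3.37 ± 0.42 (limma adjusted p = 7.28e-04) and -3.80 without library 1. The fall in HT29 was not called after trimmed mean scaling (limma adjusted p = 0.0635) or with a separate variance per line (0.153). Of 17 genes of arginine, proline and polyamine metabolism 3 were lower (17.6%, against 14.8% of all genes), with a median of -0.38 against -0.25, so the list was near the level of all genes. Leaving out library 1 gave 5 lower and 3 higher, where 31.8% and 11.9% of all genes were. ARG2 and OAZ1, the antizyme that restrains polyamine synthesis (difference -0.72 ± 0.15), had the smallest adjusted p.

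Targets of NRF2 were mainly lowered in HT29. Of 26 tested, 23 were lowered and 0 raised in HT29, against 9 lowered and 4 raised in H441. Their median change in HT29 was -1.33, and -1.35 without library 1. The difference was lower for 17 (65.4%, against 14.8% of all genes) and higher for 0, with a median of -1.05, and 12 lower calls were stable. Without library 1 24 were lower and 0 higher, and after trimmed mean scaling 13 were lower and 1 higher. GCLM, the regulatory subunit of the first enzyme of glutathione synthesis, rose in H441 from 57.1, 58.5 and 59.1 to 98.2, 92.9 and 97.4 TPM and fell in HT29 from 60.3, 61.2 and 47.5 to 17.0, 17.2 and 13.8 TPM, with no overlap in either line. Its difference was -2.46 ± 0.17 (limma adjusted p = 3.93e-05). OSGIN1, an oxidative stress inducible growth inhibitor, rose in H441 from 20.9, 22.6 and 20.3 to 58.1, 61.8 and 63.2 TPM and fell in HT29 from 16.6, 39.7 and 39.4 to 11.4, 9.85 and 10.51 TPM, a difference of -2.89 ± 0.37. NQO1, a quinone reductase, fell in both lines, and its difference of -0.65 ± 0.15 was not called after trimmed mean scaling (-0.39, limma adjusted p = 0.21).

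AKR1B10, an aldo-keto reductase that reduces aldehydes and retinal, had the widest change within HT29 among named genes. It fell in HT29 from 869, 1584 and 1565 to 36.8, 32.0 and 30.6 TPM, while H441 had 10.6, 14.0 and 9.23 TPM in RPMI-1640 and 5.93, 7.74 and 6.70 TPM in HPLM. The HT29 groups were far apart with library 1 the lowest of its group, and the H441 groups did not overlap but the change of -0.65 was not called. That change in H441 was called without library 1 (limma adjusted p = 0.00333), with a separate variance per line (limma, 0.0155) and by DESeq2 (0.0187). It was not called after trimmed mean scaling (limma, 0.0773) or by edgeR (0.0726). The difference was -4.60 ± 0.32 (limma adjusted p = 3.93e-05) and -4.89 without library 1. AKR1C3, a steroid-converting relative, fell in both lines by like amounts, from 70.8, 67.7 and 62.6 to 13.7, 12.9 and 14.9 TPM in H441 and from 217, 473 and 491 to 78.6, 73.6 and 66.9 TPM in HT29. Its difference was -0.13 ± 0.36 with a 95% interval from -0.93 to 0.67, and without library 1 it was -0.51 (limma adjusted p = 0.00644). AKR1C1 had -1.64 ± 0.69 (limma adjusted p = 0.133), called without library 1 at -2.42. Members of the AKR1C group are close paralogs whose reads can be exchanged. NMRAL2P, a transcribed pseudogene, had 11.6, 12.6 and 11.7 TPM in RPMI-1640 and 23.6, 24.1 and 23.98 TPM in HPLM in H441, a change of 0.94 that was not called, and fell in HT29 from 6.97, 30.7 and 30.6 to 1.85, 2.05 and 2.27 TPM. The rise in H441 was called without library 1 (limma adjusted p = 3.19e-06) and with a separate variance per line (limma, 7.60e-05). It was not called after trimmed mean scaling with all libraries (limma, 0.313) or by edgeR (0.234). The difference of NMRAL2P was -3.65 ± 0.59 (limma adjusted p = 0.00284). Of 15 aldo-keto reductases and aldehyde dehydrogenases 4 were lower (26.7%, against 14.8% of all genes) and 1 higher. Without library 1 9 of them were lower and 3 higher, where 31.8% and 11.9% of all genes were.

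Most sterol genes were lowered in HT29, and few in H441. Of 27 genes of cholesterol synthesis and sterol sensing, 18 were lowered and 1 raised in HT29, and 4 lowered and 0 raised in H441. The list's median change in HT29 was -1.20, but -0.81 without library 1. The difference was lower for 10 (37.0%, against 14.8% of all genes) and higher for 0, with a median of -1.12. Without library 1 17 were lower and the median was -0.64, and all 10 lower calls were stable. STARD4 (ENSG00000164211, chromosome 5, 111496033 to 111512590), which carries cholesterol between membranes, had 20.3, 21.9 and 20.3 TPM in RPMI-1640 and 21.6, 20.1 and 21.0 TPM in HPLM in H441. In HT29 it fell from 43.1, 42.5 and 38.4 to 2.99, 2.94 and 2.69 TPM. The H441 groups overlapped, while the HT29 groups were far apart and library 1 lay with the rest of its group. The difference was -3.45 ± 0.13 (limma adjusted p = 3.70e-07) and -3.42 without library 1.

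The window of STARD4 (RefSeq, GRCh38.p14, chr5:111512486-111512785, minus strand) is shown as that of the sterol gene with the smallest adjusted p, with CCAAT at -161 and -130 in capitals.

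STARD4: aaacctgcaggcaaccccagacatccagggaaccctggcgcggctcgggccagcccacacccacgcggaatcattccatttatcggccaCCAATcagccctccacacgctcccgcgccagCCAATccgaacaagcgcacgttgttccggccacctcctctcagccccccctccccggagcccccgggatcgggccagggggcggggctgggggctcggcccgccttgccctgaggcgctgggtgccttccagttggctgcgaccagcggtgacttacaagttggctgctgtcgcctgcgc

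CCAAT was in all 8 promoters of lower sterol genes with a RefSeq entry, against 43.4% of all genes tested. The sterol element TCACNCCAC was in 0 of these 8 and in 2.08% of the promoters of all lower genes, which says only that these letters are not in the windows.

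MSMO1, a methyl sterol oxidase, had 163, 173 and 163 TPM in RPMI-1640 and 159, 147 and 156 TPM in HPLM in H441 and fell in HT29 from 99.9, 114 and 118 to 23.3, 22.7 and 22.2 TPM. Its difference was -2.12 ± 0.13 (limma adjusted p = 2.21e-05). INSIG1, which holds SREBP in the ER and is itself a SREBP target, fell in both lines, from 85.5, 86.4 and 88.3 to 25.0, 25.0 and 23.7 TPM in H441 and from 119.5, 169 and 162 to 10.1, 8.27 and 7.40 TPM in HT29. The fall was wider in HT29, with a difference of -2.19 ± 0.20 (limma adjusted p = 1.52e-04). HMGCS1, an early enzyme of the pathway, had 273, 95.2 and 86.6 TPM in HT29 in RPMI-1640, where library 1 was the highest, and 32.0, 30.8 and 27.4 TPM in HPLM, and its difference went from -1.86 ± 0.48 to -1.33 without that library. Among 7 genes of sterol export 3 were lower and 1 higher: NPC1, which moves cholesterol out of lysosomes, had -1.33 ± 0.18 and SOAT1, which esterifies it, -1.23 ± 0.19. Leaving out library 1 gave 3 lower and 2 higher of these 7. Of 15 genes of fatty acid synthesis 6 were lower (40%) and 4 after trimmed mean scaling, against 14.8% and 9.2% of all genes. Leaving out library 1 gave 8 lower and 3 higher, where 31.8% and 11.9% of all genes were. The median went from -0.53 to -0.33. The list was led by ACSL1, an acyl-CoA synthetase, which had 69.7, 72.2 and 64.1 and 63.9, 60.5 and 61.2 TPM in H441 and fell in HT29 from 51.2, 30.1 and 26.2 to 7.18, 6.37 and 6.06 TPM (difference -2.08 ± 0.28). SCD, the stearoyl-CoA desaturase, fell in both lines, with changes of -1.74 in H441 and -2.23 in HT29. Its difference of -0.49 ± 0.14 (limma adjusted p = 0.0416) was not called after trimmed mean scaling (-0.24, limma adjusted p = 0.169).

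Glucose-responsive TXNIP and ARRDC4 fell in both lines. TXNIP, which restrains glucose uptake and is a MondoA target, went down in H441 from 1213, 1237 and 1137 to 51.4, 48.0 and 48.8 TPM and in HT29 from 299.6, 891 and 839 to 37.4, 38.9 and 33.8 TPM. The media were far apart in both lines. The difference was 0.55 ± 0.46 (95% interval -0.46 to 1.57, limma adjusted p = 0.455) and 0.05 without library 1. ARRDC4, a related arrestin and MondoA target, fell from 43.9, 46.7 and 42.5 to 5.08, 5.25 and 5.92 TPM in H441 and from 54.8, 93.2 and 82.2 to 3.04, 3.82 and 2.74 TPM in HT29, with a difference of -1.36 ± 0.25 (limma adjusted p = 0.00534). Of 9 genes of glucose sensing 2 were lower in HT29 (22.2%, against 14.8% of all genes), the other being KLF10 (-1.15 ± 0.25, not called after trimmed mean scaling). Leaving out library 1 gave 5 lower and 0 higher of these 9, where 31.8% and 11.9% of all genes were. Of 23 genes of glycolysis and glucose uptake 9 were lower (39.1%, against 14.8% of all genes) and 0 higher, with a median of -0.57. Without library 1 14 of them were lower and 2 higher. SLC16A1, the lactate carrier MCT1, rose in H441 from 3.36, 3.76 and 3.10 to 18.4, 18.0 and 17.6 TPM and fell in HT29 from 149.5, 107 and 96.2 to 79.3, 77.4 and 68.7 TPM, without overlap in either line. Its difference was -2.72 ± 0.21 (limma adjusted p = 6.29e-05). HK2, a hexokinase, rose in H441 from 103, 102 and 89.3 to 209, 197 and 206 TPM and fell in HT29 from 48.2, 40.4 and 36.8 to 25.4, 25.0 and 23.5 TPM, a difference of -1.78 ± 0.16. Of 16 hypoxia genes 4 were lower (25%), 15 without library 1 and 1 after trimmed mean scaling. The shares of all genes were 14.8%, 31.8% and 9.2% in these settings, so the last count was near the level of all genes. That count kept library 1. With trimmed mean scaling and without library 1 together, 15 were lower and 0 higher, with a median of -1.03. Of the 13375 genes 3662 were lower and 3319 higher there, with a median of -0.0008. P4HA1, a collagen prolyl hydroxylase, had -1.39 ± 0.27.

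**Figure D3:**
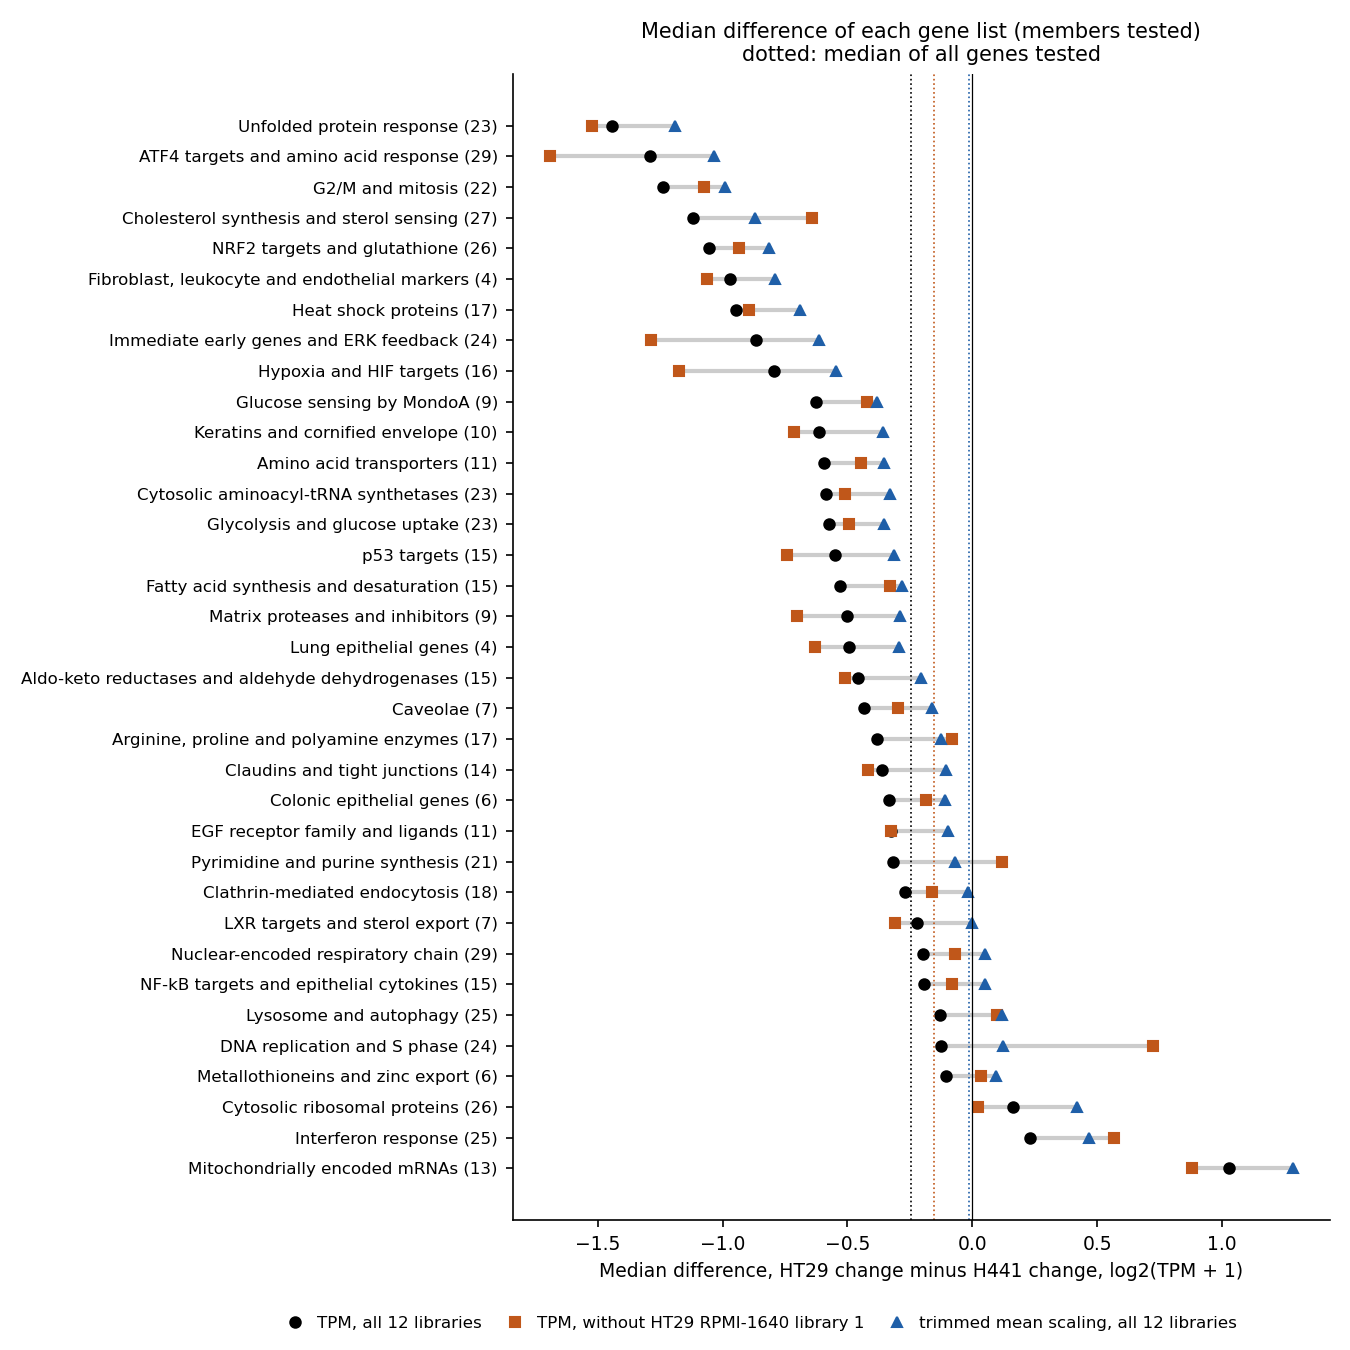
Median difference (HT29 change minus H441 change, log2(TPM + 1)) of the tested members of each gene list, whose number is in brackets, with all 12 libraries (circles), without HT29 RPMI-1640 library 1 (squares) and after trimmed mean scaling (triangles); dotted lines mark the median of all genes tested in each setting. The unfolded protein response, ATF4, G2/M and sterol lists lie to the left of these lines in all 3 settings, the S phase list moves to 0.72 without library 1, and the mitochondrially encoded mRNAs lie to the right.

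Genes of mitosis were lowered, and more of them in HT29 than in H441. Of 22 G2/M genes, 10 were lowered in H441 and 21 in HT29, with none raised in either, and 19 had a lower difference (86.4%, against 14.8% of all genes), of which 18 were stable. The median difference was -1.24, -1.08 without library 1 and -0.99 after trimmed mean scaling. The median change in HT29 was -1.83, and -1.68 without library 1. CCNB1 (ENSG00000134057, chromosome 5, 69167010 to 69178245), the mitotic cyclin B1, fell in H441 from 340.0, 352 and 315 to 241, 217 and 233 TPM and in HT29 from 224, 205 and 203 to 59.5, 59.7 and 55.3 TPM. The media did not overlap in either line, and the 3 HT29 RPMI-1640 libraries lay close together. The difference was -1.30 ± 0.13 (limma adjusted p = 2.52e-04) and -1.25 without library 1. CCNB2, CDK1 (the kinase that cyclin B activates), CDCA8 (a subunit of the chromosomal passenger complex) and NDC80 (an outer kinetochore subunit) had differences of -1.28 ± 0.13, -1.56 ± 0.20, -1.53 ± 0.19 and -1.48 ± 0.16, each lowered in both lines. MKI67, a marker of proliferation, was not called, at -0.69 ± 0.44 (limma adjusted p = 0.319) and -0.21 without library 1.

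The window of CCNB1 (RefSeq, GRCh38.p14, chr5:69166900-69167199, plus strand) is shown because paired CCAAT boxes are a textbook feature of mitotic promoters, and its boxes at -87 and -55 are in capitals.

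CCNB1: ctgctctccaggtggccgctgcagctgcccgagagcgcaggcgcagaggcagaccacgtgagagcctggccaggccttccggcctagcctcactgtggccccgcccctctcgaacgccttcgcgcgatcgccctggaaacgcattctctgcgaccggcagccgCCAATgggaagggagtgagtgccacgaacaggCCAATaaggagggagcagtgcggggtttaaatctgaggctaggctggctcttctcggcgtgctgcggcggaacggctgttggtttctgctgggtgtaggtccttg

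Of 14 promoters of lower G2/M genes, 12 (85.7%) held CCAAT, against 43.4% of all genes tested.

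Genes of DNA replication did not follow those of mitosis, and their direction turned on library 1. Of 24 S phase genes 1 was lower and 0 higher with all libraries, with a median of -0.12, but without library 1 19 were higher and 1 lower, with a median of 0.72. Of all genes 11.9% were higher and 31.8% lower without library 1. After trimmed mean scaling with all libraries 0 were higher and 1 lower, with a median of 0.12. MCM4, a subunit of the replicative helicase, had 286, 29.5 and 26.0 TPM in HT29 in RPMI-1640, where library 1 was far above libraries 2 and 3, and 52.5, 50.6 and 42.8 TPM in HPLM. In H441 it had 182, 185 and 180.4 and 130.0, 127 and 127 TPM, and the difference went from 0.18 ± 0.97 (limma adjusted p = 0.921) to 1.29 (limma adjusted p = 2.20e-05). MCM4 was chosen after its values were seen, to show the effect of the library. CDC6, which loads the helicase, was the list's lower gene in both settings, with 84.3, 88.9 and 84.5 and 135, 128 and 132 TPM in H441 and 154, 51.6 and 50.1 and 28.9, 26.5 and 24.5 TPM in HT29. Its difference was -2.05 ± 0.48 (limma adjusted p = 0.015) and -1.52 without library 1. Whether the cells of library 1 differed in density, cycle or handling was not tested.

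**Figure D4:**
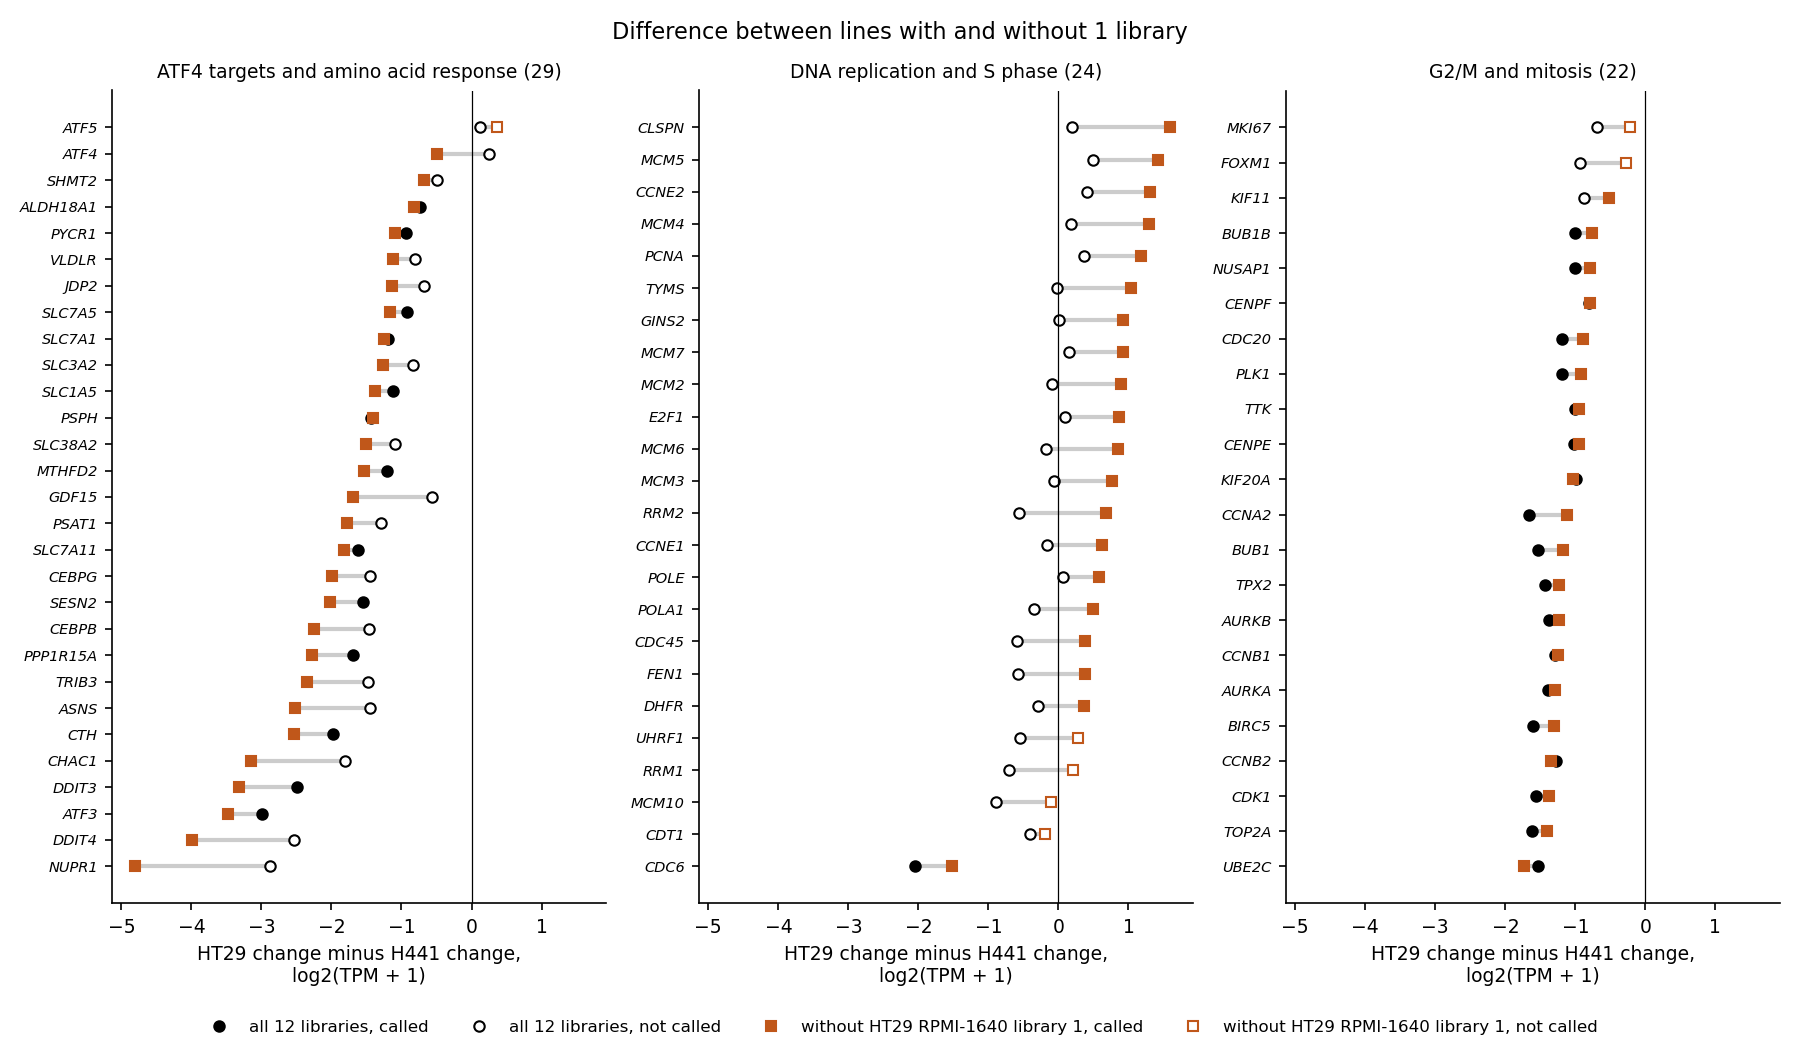
Difference between lines (HT29 change minus H441 change, log2(TPM + 1)) of each tested member of 3 gene lists with all 12 libraries (circles) and without HT29 RPMI-1640 library 1 (squares), filled where called. Without the library 28 ATF4 genes are called lower and 19 S phase genes called higher, while 20 G2/M genes are called lower against 19 with it.

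Several growth factor and early response genes were raised in H441: 6 of 11 genes of the EGF receptor family and its ligands, with 3 lowered, and 10 of 24 immediate early and ERK feedback genes, with 1 lowered. Of all genes 13.8% were raised and 3.15% lowered in H441. Of 11 genes of the EGF receptor family and its ligands 5 were lower in HT29 (45.5%) and 0 higher, and without library 1 5 were lower and 2 higher. AREG, amphiregulin, rose in H441 from 275, 271 and 268 to 653, 579 and 614 TPM and fell in HT29 from 279.9, 457 and 453 to 174, 176 and 158 TPM, with no overlap in either line. Its difference was -2.37 ± 0.24 (limma adjusted p = 2.52e-04). EREG, epiregulin, had -2.05 ± 0.19, and HBEGF, heparin-binding EGF-like growth factor, -2.80 ± 0.27, the last through a rise in H441 from 7.88, 7.21 and 7.93 to 65.5, 59.0 and 61.9 TPM. Of 24 immediate early and ERK feedback genes 5 were lower and 1 higher, and without library 1 21 were lower. The shares of all genes called lower were 14.8% and 31.8% in these settings, so the first count (20.8%) was not far from that of all genes. SPRY4 and SPRED1, inhibitors of RAS to ERK signalling, had differences of -1.58 ± 0.18 and -1.13 ± 0.20. EGR1, an immediate early transcription factor, in HT29 had 22.0, 369 and 354 TPM in RPMI-1640 and 184, 175 and 155 TPM in HPLM, and its difference of -2.19 (limma adjusted p = 0.23) was -3.51 without library 1. MYC, a growth transcription factor, went the other way with that library, from -1.80 to -1.05, and was called only without it (limma adjusted p = 0.0947 and 3.18e-04).

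The lists of zinc, nucleoside and barrier genes held few lower genes each, and their counts read against 14.8% lower over all genes. MT1X, a metallothionein that binds zinc and has close paralogs, rose in H441 from 14.6, 16.9 and 17.8 to 37.7, 35.9 and 38.2 TPM and fell in HT29 from 7.71, 7.58 and 11 to 3.19, 4.05 and 3.86 TPM, a difference of -2.18 ± 0.20. SLC30A1, the zinc exporter, had -1.51 ± 0.17, and these were the 2 lower genes of 6. Without library 1 the list had 2 lower and 3 higher genes. CDA, cytidine deaminase, had 106, 100.4 and 103 TPM in RPMI-1640 and 113, 116 and 132 TPM in HPLM in H441 and fell in HT29 from 17.2, 27.0 and 28.0 to 3.14, 3.57 and 3.16 TPM. UPP1, uridine phosphorylase, rose in H441 from 21.7, 23.3 and 22.4 to 128, 126 and 137 TPM and had 8.96, 16.3 and 16.2 and 14.7, 15.3 and 14.5 TPM in HT29. Thus CDA differed through a fall in HT29 (-2.74 ± 0.23) and UPP1 through a rise in H441 (-2.34 ± 0.26), and of 21 pyrimidine and purine genes 3 were lower (14.3%), the share over all genes being 14.8%. Without library 1 that list had 6 lower and 4 higher genes, and its median went from -0.32 to 0.12. KRT7, a keratin of simple epithelium, rose in H441 from 991, 1028 and 931 to 1997, 1982 and 2058 TPM and fell in HT29 from 7.63, 11.6 and 10.8 to 6.11, 5.40 and 6.34 TPM (-1.68 ± 0.19), and of 10 keratin genes 3 were lower. CLDN1, a claudin of tight junctions, and KRT80, a keratin, rose in both lines and more in H441, with differences of -1.30 ± 0.18 and -1.05 ± 0.19. Of 14 tight junction genes 3 were lower and of 9 matrix proteases and inhibitors 2, which went down to 2 and 1 after trimmed mean scaling, where 9.2% of all genes were lower. Without library 1 the keratin, tight junction and matrix lists had 5, 8 and 6 lower genes and 1, 0 and 2 higher. Of 15 p53 targets 4 were lower (26.7%) and 2 higher. Without library 1 10 of these targets were lower and 2 higher, where 31.8% and 11.9% of all genes were. PMAIP1, the cell death protein NOXA, rose in H441 (change 0.79) and fell in HT29 (change -0.75), a difference of -1.54 ± 0.29.

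Of the immune, endocytic and organelle lists, the shares of lower genes were 8% for interferon, 13.3% for NF-kB, 24% for lysosome and autophagy, 16.7% for clathrin and 14.3% for caveolae, against 14.8% of all genes. Of 25 interferon genes 2 were lower and 2 higher, but without library 1 4 were lower and 17 higher, with a median of 0.57. The lower ones included IRF1, an interferon regulatory factor, at -1.07 ± 0.19, and OASL, an antiviral protein, at -0.99 ± 0.17, not called by edgeR. Of 15 NF-kB targets 2 were lower, among them LIF, a cytokine, at -1.22 ± 0.13. Leaving out library 1 gave 3 lower and 2 higher of these targets. Of 25 lysosome and autophagy genes 6 were lower, 2 lower and 3 higher after trimmed mean scaling. Without library 1 10 of them were lower and 7 higher, and the median went from -0.13 to 0.10. Of 18 clathrin endocytosis genes 3 were lower, among them AP2A2, an adaptor subunit, at -0.86 ± 0.14, while CLTC, the clathrin heavy chain, had -0.31 ± 0.31 (limma adjusted p = 0.543) and 0.00 without library 1. Of these 18 genes 7 were lower and 1 higher without library 1, where 31.8% and 11.9% of all genes were. Of 7 caveola genes 1 was lower and 1 higher, and without library 1 2 were lower and 1 higher. CAV1, caveolin 1, in HT29 had 10.1, 1.28 and 0.434 TPM in RPMI-1640 and 2.77, 2.75 and 2.82 TPM in HPLM, and its difference turned from -0.43 to 0.44 without library 1, called in neither. Without that library it was called higher after trimmed mean scaling (0.66, limma adjusted p = 0.0265) and by edgeR (1.38, adjusted p = 6.0e-05). None of 26 cytosolic ribosomal protein genes, 29 nuclear-encoded respiratory chain genes, 4 lung epithelial genes or 6 colonic epithelial genes was called on the TPM scale in limma with all libraries. After trimmed mean scaling the lists had 2, 0, 0 and 1 higher genes and none lower, with median centring 5, 1, 0 and 1, and without mitochondrially encoded genes 6, 1, 0 and 1. Without library 1 on the TPM scale they had 0 higher and 0 lower, 3 and 1, 0 and 3, and 1 and 3. At an unadjusted p below 0.05 these lists had 1 higher and 0 lower, 0 and 3, 0 and 2, and 1 and 0 genes, and edgeR called 2 and 0, 0 and 0, 0 and 0, and 1 and 1. Of 4 tested markers of fibroblasts, leukocytes and endothelium 1 was lower, the macrophage marker CD68, and it was not called after trimmed mean scaling (limma adjusted p = 0.129). Leaving out library 1 gave 2 lower and 0 higher of these markers.

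Of the genes with a higher change in HT29, RGCC (ENSG00000102760, chromosome 13, 41457559 to 41470882), a regulator of the cell cycle induced by complement and p53, had the widest difference among the protein-coding genes named here. It had 10.54, 9.90 and 10.1 TPM in RPMI-1640 and 5.61, 7.06 and 7.26 TPM in HPLM in H441 and rose in HT29 from 5.91, 1.39 and 1.72 to 23.1, 19.98 and 17.4 TPM. The HT29 media did not overlap, and library 1 was the highest of its group. The difference was 3.12 ± 0.45 (limma adjusted p = 0.00165) and 3.60 without library 1. VGLL1, a cofactor of TEAD transcription factors, had 19.6, 23.4 and 17.3 and 21.9, 21.8 and 18.6 TPM in H441 and rose in HT29 from 1.58, 0.762 and 0.303 to 14.7, 13.9 and 11.9 TPM. RAMP1, a partner of the CGRP receptor, had 48.8, 43.9 and 44.3 and 40.0, 40.5 and 38.3 TPM in H441 and rose in HT29 from 1.78, 0.952 and 1.66 to 16.9, 10.4 and 12.7 TPM. In both genes the HT29 libraries in HPLM came nearer to the level of H441. The differences were 2.95 ± 0.31 and 2.73 ± 0.24 (limma adjusted p = 3.01e-04 and 1.34e-04). GALNT5, which starts O-glycans of mucins, ADGRF1, an adhesion G protein-coupled receptor, and UCA1, a long non-coding RNA, likewise were raised in HT29 and not called in H441, with differences of 2.48 ± 0.38, 2.06 ± 0.37 and 1.93 ± 0.24. In H441 UCA1 was called lowered after trimmed mean scaling (change -0.49, limma adjusted p = 0.0232), by edgeR (adjusted p = 0.0143) and without library 1 (limma adjusted p = 0.00568), and GALNT5 without library 1 (limma adjusted p = 0.00641). Of 366 higher genes, 227 (62.0%) were protein coding and 41 (11.2%) antisense, against 80.6% and 5.38% of all genes tested, and 93.7% and 2.28% of the lower genes. The library kit keeps no strand, so reads of an antisense gene and its partner cannot be told apart.

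Some higher genes were lowered in H441 and raised in HT29. STEAP4, a metalloreductase, fell in H441 from 73.4, 73.1 and 71.8 to 54.5, 49.0 and 54.2 TPM and rose in HT29 from 6.77, 8.53 and 7.44 to 26.5, 25.8 and 23.5 TPM, without overlap in either line. Its difference was 2.08 ± 0.14 (limma adjusted p = 3.93e-05). MVP, the major vault protein, fell in H441 from 151, 152 and 149 to 106, 101 and 106 TPM and rose in HT29 from 58.4, 61.0 and 56.3 to 103, 98.5 and 86.9 TPM (1.23 ± 0.13). SLC17A5, the lysosomal exporter of sialic acid, MYEOV and TMC5 had differences of 1.11 ± 0.22, 0.96 ± 0.17 and 0.86 ± 0.14 with the same pair of signs. On the trimmed mean scale their changes in H441 were -0.69, -0.58 and -0.64, farther from 0 than on the TPM scale, and the differences 1.36, 1.21 and 1.11. Of 13 mitochondrially encoded mRNAs 9 were higher and 0 lower, with a median of 1.03. Leaving out library 1 gave 11 higher and 0 lower, with a median of 0.88. Of all genes 2.74% were higher with all libraries and 11.9% without library 1. MT-ND5, a complex I subunit, had 5609, 5105 and 6464 and 3026, 3562 and 3129.6 TPM in H441 and 5779.8, 7045 and 6139 and 7154, 8007 and 9458 TPM in HT29, a difference of 1.19 ± 0.20, and MT-ND4L had 1.20 ± 0.26.

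A few genes rose in both lines, more in HT29. CAVIN2, a caveola coat protein, rose in H441 from 30.8, 32.3 and 29.6 to 69.3, 61.1 and 69.2 TPM and in HT29 from 0.680, 0.324 and 0.318 to 10.6, 8.98 and 8.604 TPM, a difference of 1.78 ± 0.17 (limma adjusted p = 2.23e-04). TGFBI, a matrix protein induced by TGF-beta, rose in both, with a difference of 0.85 ± 0.20, and NABP1, a single-stranded DNA binding protein, with 0.74 ± 0.14. Other genes changed in the same direction with a 95% interval of the difference within 1 on either side of 0. EDN1, endothelin 1, rose in H441 from 8.56, 8.85 and 10.3 to 23.1, 21.7 and 22.3 TPM and in HT29 from 15.7, 11.4 and 11.7 to 29.9, 27.6 and 25.8 TPM, with a difference of -0.14 ± 0.18 (95% interval -0.54 to 0.26) that was 0.11 after trimmed mean scaling. ZNF239, a zinc finger protein, had -0.34 ± 0.19 (95% interval -0.77 to 0.08), and the taurine carrier SLC6A6 fell in both lines with -0.59 ± 0.14, a call lost after trimmed mean scaling (-0.35).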

How the data were processed

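Poly(A) RNA of 2 lines in 2 media was sequenced from TruSeq v2 libraries, per the labels' protocols. STAR 2.5.2b, Trimmomatic 0.36, Subread 1.5.2 and DESeq2 were used with GRCh38, per the submitters' processing notes. Tool roles and annotation were not given in the sources used here. The authors deposited TPM values of 58051 genes in 12 libraries (GEO lists 4 samples, with 3 numbered columns each). A second deposited signal is a read count divided by a size factor per library, from which whole reads were recovered (100% of values within 0.01 of a whole number in all 12 libraries).

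Both tables of TPM were joined on gene identifier. log2(TPM + 1) was fitted with limma 3.58.1 in R 4.3.3 (a mean per group, no trend or robust options) over all 12 libraries, two-sided, with Benjamini-Hochberg adjustment over 13375 genes and a threshold of 0.05. The fit shares 1 spread per gene, although HT29 RPMI-1640 libraries spread more. Log2 differences understate changes of low genes, and errors are standard errors unless marked SD. edgeR 4.0.16 on recovered reads called 897 genes higher and 1409 lower, and DESeq2 1.42.0 1253 and 1708. Scripts were tested on simulated data with 1 spread per gene for all libraries. That simulation held no outlying library, so it does not cover the uneven spread of these data.

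Named genes followed a rule: the 10 widest differences in each direction called with and without HT29 RPMI-1640 library 1, the 6 widest of opposite sign per direction and the 4 widest of each same-sign class (mean TPM of at least 5 in each line), the 2 list members with the smallest adjusted p (mean TPM of at least 1), and a fixed set of genes. Not all of these are printed. The genes, lists and tests were chosen with earlier results of these data known. Promoters, matched by symbol for 9416 tested genes, came from RefSeq (GRCh38.p14), 250 bases before to 50 after the start. Libraries with the same number did not vary together (correlations of deviations 0.033, 0.009 and 0.006 in H441, and 0.084, -0.114 and 0.243 in HT29), so numbers were not treated as pairs. Alternatives changed the libraries, pseudocount, filter, scaling, variance, block or tool.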

Additional observations from a re-analysis of the deposited data

Results flagged for a closer look

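The test of the difference itself called 366 genes higher and 1975 lower in HT29, and these counts are listed here for that reason. They moved with the scale, to 894 higher and 1230 lower after trimmed mean scaling. The counts were 965 and 1036 without mitochondrially encoded genes, and 1148 and 1008 with median centring. The spread between libraries on which the test rests may be technical. Also listed are named genes that were called in opposite directions in the 2 lines. Raised in H441 and lowered in HT29 were HMOX1, with a difference of -5.41, HSPA1A with -3.89, ARG2 with -3.37, OSGIN1 with -2.89, AREG with -2.37 and MT1X with -2.18. Lowered in H441 and raised in HT29 were STEAP4, with a difference of 2.08, MVP with 1.23, MT-ND4L with 1.20, SLC17A5 with 1.11, MYEOV with 0.96 and TMC5 with 0.86. All values are on the log2(TPM + 1) scale. Without HT29 RPMI-1640 library 1 the differences of these 12 genes kept their signs, from -5.89 in HMOX1 to 2.01 in STEAP4. With a separate variance per line, the change in HT29 was not called by limma for HMOX1 (adjusted p = 0.0752), ARG2 (0.153), OSGIN1 (0.0603), MT-ND4L (0.156), SLC17A5 (0.159), MYEOV (0.119) and TMC5 (0.170), and that of ARG2 was not called after trimmed mean scaling either (limma adjusted p = 0.0635).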

How the results depend on the processing

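Leaving out 1 library in turn moved the count of higher genes between 218 and 1592 and that of lower genes between 1219 and 4258, with the highest value of each without HT29 RPMI-1640 library 1. Leave-one-out counts ranged from 1008 to 4824 for genes raised in H441, 224 to 1537 for genes lowered in H441, 815 to 3473 for genes raised in HT29 and 1369 to 3802 for genes lowered in HT29. Other settings gave the following numbers. The count of higher genes was 643 with no filter, 243 with a stricter filter, 965 without mitochondrially encoded genes, 894 with trimmed mean scaling, 1148 with median centring, 1976 with array weights, 897 with edgeR and 1253 with DESeq2. Lower genes numbered 1036 without mitochondrially encoded genes, 1230 with trimmed mean scaling, 1008 with median centring and 4781 with array weights. Without library 1, trimmed mean scaling gave 3319 higher and 3662 lower, a separate variance per line 1527 and 4170, and edgeR 3722 and 3596 (settings chosen after seeing the data). Genes raised in H441 numbered 1127 with median centring, 5793 with array weights and 5183 with a separate variance, and without library 1 3416 with trimmed mean scaling, 5183 with a separate variance and 3251 with edgeR. Genes lowered in H441 numbered 898 without mitochondrially encoded genes, 1061 with trimmed mean scaling, 1209 with median centring, 2009 with array weights, 1737 with a separate variance, 1113 with edgeR and 1586 with DESeq2, and without library 1 3430, 1737 and 3823 in the order above. Genes raised in HT29 numbered 815 with a stricter filter, 2305 without mitochondrially encoded genes, 2003 with trimmed mean scaling, 2188 with median centring, 3783 with array weights, 322 with a separate variance and 2105 with DESeq2, and without library 1 4087, 3084 and 4258. Genes lowered in HT29 numbered 3983 with array weights and 541 with a separate variance, and without library 1 4250 with trimmed mean scaling and 4326 with edgeR. The replicate block gave 248 higher and 1481 lower genes, and the pairing check did not tie the numbers to samples.

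Of single-gene results under all settings, 3123 kept their direction and side of the threshold, 185 lost a call, 110 gained a call and 30 changed sign. The sign changes were in 6 genes not called with all libraries, and CAV1 was called in the other direction without library 1 after trimmed mean scaling and by edgeR, as was CLTC by edgeR. Over the leave-one-out settings AKR1C3 ranged from -0.511 to 0.0773, CAV1 from -1.04 to 0.441, CLTC from -0.522 to 0.00103 and EDN1 from -0.214 to 2.36e-05, the last 3 with their highest value without HT29 RPMI-1640 library 1. With a separate variance without library 1 the values were again 0.441, 0.00103 and 2.36e-05. AKR1C3 was 0.174 without mitochondrially encoded genes, 0.113 with trimmed mean scaling, 0.171 with median centring, 0.0628 with edgeR and 0.0791 with DESeq2. EDN1 in the same order was 0.142, 0.113, 0.160, 0.117 and 0.143, and GTF2IP23 was 0.0432, 0.0314 and 0.0852 in the first 3 of these. With array weights CAV1 was 0.250 and CLTC 0.0372. Without library 1 trimmed mean scaling gave 0.656 for CAV1, 0.164 for CLTC and 0.165 for EDN1, and edgeR gave 1.38, 0.194 and 0.194, and 0.0120 for ZNF239. For settings other than the rescalings and library 1 the cause was not tested. Depth of 14.2 to 30.6 M reads per library limits genes near 1 TPM, where log2(TPM + 1) compresses differences.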

Other observations

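Genes that no rule named, chosen after their values were seen, show how far HT29 RPMI-1640 library 1 stood from libraries 2 and 3. NUPR1, a stress-induced chromatin protein, had 1.42, 121 and 142 TPM in that group and 21.5, 19.6 and 19.8 TPM in HT29 in HPLM. DDIT4, an inhibitor of mTORC1, had 16.6, 358 and 355 and 48.1, 44.0 and 37.5 TPM, and NDRG1, a hypoxia target, 6.29, 147 and 140.4 and 21.7, 21.0 and 17.7 TPM. Their differences were -2.88, -2.54 and -1.61 with all libraries and -4.81, -3.99 and -3.05 without it. Of genes lowered in both lines, TNFSF10, the death ligand TRAIL, fell in H441 from 15.3, 16.0 and 16.1 to 6.25, 4.63 and 4.05 TPM and in HT29 from 28.3, 45.4 and 38.3 to 26.6, 25.8 and 22.5 TPM, a smaller fall in HT29 by 0.97 ± 0.25. Its fall in HT29 was narrowly called (limma adjusted p = 0.0441) and was not called after trimmed mean scaling (limma, 0.135), without mitochondrially encoded genes (limma, 0.176), with median centring (limma, 0.154), with a separate variance per line (limma, 0.161), by edgeR (0.0931) or by DESeq2 (0.0638).

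Some of the widest positive differences belonged to short or immune-receptor genes. IGLV2-14 was not called by edgeR (adjusted p = 0.141) or DESeq2 (adjusted p = 0.206) on recovered reads, and MIR4482 and SNORA2A were not in those fits. IGLV2-14 had 7.22, 9.40 and 5.29 and 9.77, 0 and 0 TPM in H441 and 0.607, 0 and 6.27 and 11.1, 16.7 and 8.64 TPM in HT29. MIR4482 had 22.8, 15.9 and 19.0 and 14.8, 17.3 and 18.3 TPM in H441 and 0, 7.46 and 4.00 and 22.6, 29.9 and 24.8 TPM in HT29, and SNORA2A had 7.52, 8.23 and 4.93 and 4.59, 2.25 and 4.06 TPM and 1.81, 7.74 and 3.46 and 7.80, 12.2 and 11.3 TPM.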
